A study of Homo sapiens with 6 samples.

Results

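Bidirectional promoters are stretches of DNA from which neighboring genes on opposite strands are transcribed away from each other. Here they are the pairs of protein-coding genes in GENCODE version 44 that stand head to head, the minus-strand start to the left of the plus-strand start and at most 1000 bp from it, on chromosomes 1 to 22 and X. Of 19970 protein-coding genes, 1710 belonged to such a pair, and they formed 887 pairs. A pair's region ran from 1500 bp before the left start to 1500 bp after the right start. The other 18260 protein-coding promoters had no such partner and were given regions of 1500 bp to each side of the gene start, so that 19147 promoter regions were compared in all. Some genes belonged to more than 1 pair: 123 pairs shared a gene with another pair, and joining these gave 824 separate loci. The starts of a pair lay 1 to 995 bp apart, with a median of 132 bp.

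The libraries came from parental NCI-H661 cells, an untreated line of lung large cell carcinoma that expresses DPPA2 and DPPA4. Sequential ChIP (reChIP) precipitates the fragments pulled down by a first antibody again with a second, so that a recovered fragment should carry both marks. K4-K119 used the H3K4me3 antibody first and the H2AK119ub antibody second, K119-K4 used the reverse order, and IgG-IgG used rabbit IgG in both rounds. Each condition had 2 biological replicates, all from this 1 line, so the spread is between replicates of the line and the bulk lists cannot tell how many cells or alleles carry a domain.

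At a bidirectional promoter, a stretch depleted of nucleosomes usually lies between the starts, and the first nucleosomes of each gene flank it. H3K4me3 is laid down on such nucleosomes at active and poised promoters, most of all in CpG islands. H2AK119ub is the product of PRC1, a Polycomb complex that in one form is recruited to unmethylated CpG-rich DNA. Many pairs encode proteins that every cell uses, among them DNA repair factors, metabolic enzymes and mitochondrial proteins.

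The DNA between the starts is short and rich in CpG and in promoter motifs, and it is where the reChIP peaks described below were often interrupted. The 8 sequences shown belong to 5 well-known pairs and to 3 of the pairs with the most reads. They run on the plus strand of hg38 from the start of the minus-strand gene to the start of the plus-strand gene, and capitals mark the searched motifs on either strand. The segments lie at chr2:44361862-44361947 for PREPL and CAMKMT, chr2:227164453-227164624 for COL4A4 and COL4A3, and chr4:56435615-56435741 for PPAT and PAICS. Those of TOP3A and SMCR8 (chr17:18315007-18315293) and of SARS2 and MRPS12 (chr19:38930763-38930944) complete the well-known pairs. The 3 pairs with high reads lie at chr11:10304877-10305073, chr4:56977606-56977722 and chr6:108165854-108166022.
PREPL/CAMKMT: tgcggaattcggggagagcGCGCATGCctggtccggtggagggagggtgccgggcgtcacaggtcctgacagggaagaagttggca
COL4A4/COL4A3: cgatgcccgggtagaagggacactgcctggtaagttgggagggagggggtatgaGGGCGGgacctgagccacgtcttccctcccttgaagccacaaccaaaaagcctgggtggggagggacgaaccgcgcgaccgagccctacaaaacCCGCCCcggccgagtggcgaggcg
PPAT/PAICS: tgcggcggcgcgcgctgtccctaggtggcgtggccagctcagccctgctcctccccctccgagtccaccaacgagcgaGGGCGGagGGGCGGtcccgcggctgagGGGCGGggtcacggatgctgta
TOP3A/SMCR8: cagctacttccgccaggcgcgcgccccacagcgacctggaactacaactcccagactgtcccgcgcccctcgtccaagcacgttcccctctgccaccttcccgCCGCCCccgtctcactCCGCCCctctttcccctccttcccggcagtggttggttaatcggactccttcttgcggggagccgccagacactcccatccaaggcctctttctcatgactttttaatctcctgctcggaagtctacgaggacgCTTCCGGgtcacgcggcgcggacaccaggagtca
SARS2/MRPS12: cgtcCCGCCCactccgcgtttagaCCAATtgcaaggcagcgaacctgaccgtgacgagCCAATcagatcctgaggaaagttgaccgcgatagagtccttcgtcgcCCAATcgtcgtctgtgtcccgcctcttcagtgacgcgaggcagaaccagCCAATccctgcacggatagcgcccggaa
SBF2/ADM: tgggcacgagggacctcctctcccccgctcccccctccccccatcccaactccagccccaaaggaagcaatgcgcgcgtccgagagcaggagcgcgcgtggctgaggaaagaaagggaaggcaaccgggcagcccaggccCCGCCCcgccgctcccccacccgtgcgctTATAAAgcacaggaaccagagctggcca
NOA1/POLR2B: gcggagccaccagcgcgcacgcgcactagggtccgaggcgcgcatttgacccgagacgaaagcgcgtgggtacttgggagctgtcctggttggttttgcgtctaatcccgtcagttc
OSTM1/NR2E1: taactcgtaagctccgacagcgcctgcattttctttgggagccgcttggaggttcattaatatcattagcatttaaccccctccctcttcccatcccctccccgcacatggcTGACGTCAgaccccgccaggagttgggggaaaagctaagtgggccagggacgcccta
The NRF1 motif stood alone in the PREPL segment. GC boxes were found in the COL4A4, PPAT, TOP3A, SARS2 and SBF2 segments. CCAAT boxes marked the segment between SARS2 and MRPS12, an ETS core that of TOP3A and SMCR8, a TATA box the ADM end of the SBF2 segment and a cAMP response element that of OSTM1 and NR2E1. No searched motif was in the 117 bp between NOA1 and POLR2B.

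Over all pairs, the motifs were counted in 300 bp centered between the starts, or on the start of a promoter with no partner, and on both strands. The ETS core CCGGAAG was in 27.2% of pairs and 10.8% of no-partner promoters, and the NRF1 motif GCATGCGC in 9.13% and 3.17%. The GC box GGGCGG was in 70.7% and 52.7%, and the CCAAT box in 40.6% and 33.2%. The TATA box TATAAA was less frequent at pairs, with 5.19% against 9.64%. Over all 19147 regions these shares were 11.6% for the ETS core, 3.44% for the NRF1 motif, 53.6% for the GC box, 33.6% for the CCAAT box and 9.44% for the TATA box. When no-partner promoters were weighted to the CpG content of the pairs, their GC box share became 67.4% and their TATA box share 5.22%, both near the pairs, whereas the ETS core was at 13.9% and the NRF1 motif at 4.17%. Also searched were the cAMP response element TGACGTCA (3.95% of pairs and 2.12% of all regions), a YY1 core AAGATGGCG (3.95% and 2.27%), the palindrome CTCGCGAG (2.48% and 1.16%) and the E box CACGTG (10.1% and 7.66%). Between pairs with and without a reciprocal region the ETS core was at 23.04% and 28.6%, and the NRF1 motif at 9.13% in both. These shares were not tested.

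Peaks were kept at a log2 fold over input above 1 and a false discovery rate (FDR) below 0.05, and the reads of a peak are its whole-number ChIP count. The reChIP libraries held 104052 to 188585 kept peaks and the IgG-IgG libraries 28626 and 31670. No IgG-IgG peak at a pair held more than 2 reads, so peaks of at least 10 reads were also counted separately. K4-K119 replicate 1 stood apart from the other reChIP libraries: its median log2 fold in the peaks at pairs was 4.89, against 1.66 to 1.96 in the other 3, and the filter on the fold removed nothing from pairs there.

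The first question was whether pairs carry reChIP peaks more often than promoters with no partner. They did in each of the 4 reChIP libraries. A peak of at least 10 reads was present at 832 of 887 pairs (93.8%) in K4-K119 replicate 1, at 331 (37.3%) in K4-K119 replicate 2, at 443 (49.9%) in K119-K4 replicate 1 and at 308 (34.7%) in K119-K4 replicate 2. The shares of no-partner promoters were 62.3%, 25.2%, 33.9% and 22.1% in the same order. In both IgG-IgG libraries no pair had such a peak. The limit of 10 reads was set above every IgG-IgG peak at a pair, so this is no measured control share. Weighted to the pairs' deciles of CpG count, the no-partner shares became 82.9%, 33.7%, 46.0% and 29.8%. The difference that remained was 10.9 percentage points in K4-K119 replicate 1 and 3.61 to 4.95 points in the other 3 libraries.

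**Figure D1:**
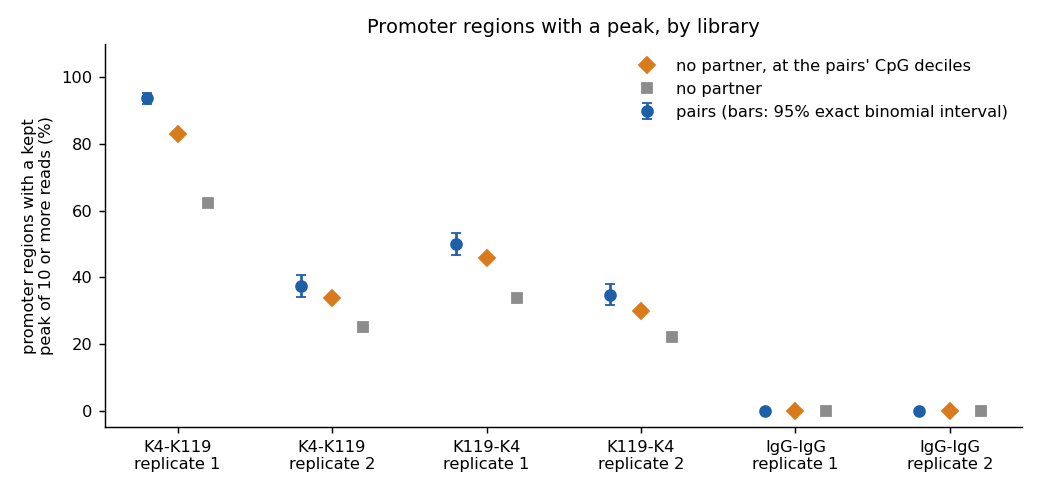
Percent of promoter regions with a kept peak of 10 or more reads (vertical axis) in each of the 6 libraries (horizontal axis), for 887 pairs with 95% exact binomial intervals, for 18260 no-partner promoters and for the latter weighted to the pairs' CpG deciles. Pairs lie above no-partner promoters in the 4 reChIP libraries, 93.8% against 62.3% in K4-K119 replicate 1. All points are at 0 in IgG-IgG, where the limit on reads lies above every peak at a pair.

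For any kept peak, the mean difference between pairs and no-partner promoters was 16.7 percentage points larger in the 4 reChIP libraries than in the 2 IgG-IgG libraries (exact permutation test over libraries, two-sided, p = 0.0667, the smallest p that 15 assignments allow). The design therefore cannot reach 0.05. For peaks of at least 10 reads the mean difference over the reChIP libraries was 18.1 points. Here the IgG-IgG value is 0 by the limit on reads, so no test against IgG-IgG is given. Neither the 16.7 nor the 18.1 points were weighted to the pairs' CpG deciles.

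The 4 reChIP libraries differed in how many pairs they marked. Peaks of at least 10 reads were found in all 4 at 219 pairs (24.7%) and in none at 55 (6.20%). At 317 pairs (35.7%) only K4-K119 replicate 1 had such a peak, as it did at 24.5% of no-partner promoters. Among the 286 pairs with a kept peak in all 4 libraries, the reads in the largest peak ranked alike, with Spearman's rho of 0.753 to 0.887 between libraries. These correlations are across pairs that share CpG content and input, and pairs are not independent replicates.

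A reciprocal region is a stretch where replicate peaks overlapped by more than 25% of both, and the merged peaks of the orders K4-K119 and K119-K4 again overlapped by that rule. Of the 887 pairs, 230 (25.9%, 95% exact binomial interval 23.1% to 28.9%) had one. Over all 19147 promoter regions 18.1% had one, and over no-partner promoters 17.7% (17.2% to 18.3%), 8.22 percentage points below the pairs. Counted by locus, the share was 26.0% (214 of 824). Intervals cover counting error only. Of the 230 pairs, 10 also had an IgG-IgG peak in the region, of 2 reads each time. The reciprocal region at a pair had a median width of 2000 bp (quartiles 1400 and 2600 bp), and 2200 bp at no-partner promoters.

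CpG content differed along with these shares. The 3000 bp around the midpoint of a pair held a median of 129 CpG, against 107 at no-partner promoters, and weighting the latter to the pairs' CpG deciles gave a share of 23.5% with a reciprocal region, 2.45 percentage points below the pairs. The sign of this last difference turned with the filter: it was -0.752 points with peaks kept at a log2 fold above 2 (where the unweighted difference was 0.850 points) and -0.207 points when peaks had to overlap by more than 50% of both. Within the pairs, those with a reciprocal region had a median of 169.5 CpG and those without 120. In the lowest 4 deciles, up to 93 CpG, 6 of 149 pairs had a reciprocal region. In the decile of 144 to 165 CpG it was 48 of 135 pairs (35.6%), and in the top decile of 198 or more it was 65 of 95 (68.4%, 58.1% to 77.6%), against 55.6% (53.2% to 57.9%) of no-partner promoters there. That top decile was where the intervals of pairs and no-partner promoters came apart in the CpG-rich range. Elsewhere above 70 CpG they overlapped, and in the decile of 126 to 143 CpG the pairs were lower, at 16.5% against 22.5%.

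Divergent transcription also occurs at many no-partner promoters, where the partner is a long noncoding RNA. The 1415 no-partner promoters with a divergent lncRNA start within 1000 bp had a reciprocal region in 28.3% of cases (26.0% to 30.8%), and their intervals overlap those of the pairs. The 16845 without one had it in 16.8%. The lncRNA group held a median of 143 CpG, and promoters without an lncRNA at the same CpG deciles reached 27.4%.

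The position of the peaks around the starts also differed. Around the midpoint of a pair, peak coverage had 2 crests, 1 inside each gene, with a trough between the starts. In K119-K4 replicate 1, of the pairs with a peak of at least 10 reads, a peak covered the position 500 bp to the left of the midpoint in 63.4%, the midpoint itself in 35.0% and the position 500 bp to the right in 63.0%. In K4-K119 replicate 2 these shares were 60.4%, 27.8% and 58.3%, and in K119-K4 replicate 2 they were 53.2%, 22.7% and 57.1%. K4-K119 replicate 1 had the shallowest trough, with 83.4%, 53.5% and 81.6%. No-partner promoters had 1 crest, downstream: their start was covered in 71.7%, 59.1%, 64.5% and 50.4% of cases in the order of the plot's libraries (K4-K119 replicates 1 and 2, K119-K4 replicates 1 and 2), and the position 500 bp upstream in 47.8%, 32.2%, 30.7% and 18.2%. With a divergent lncRNA the upstream position was covered in 66.3%, 43.2%, 42.7% and 24.8%, between pairs and all no-partner promoters in every library. These are shares of regions and were not tested over libraries, since 4 reChIP libraries measure both kinds of promoter.

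Because a pair has a downstream side on both flanks, each side was also counted alone, over all regions. In K4-K119 replicate 2 a peak of at least 10 reads covered the position 500 bp into the minus-strand side at 22.5% of pairs and into the plus-strand side at 21.8%, against 21.6% for the downstream side of no-partner promoters and 29.1% for these at the pairs' CpG deciles. In K119-K4 replicate 1 the 2 sides were at 31.7% and 31.5%, against 29.5% and 40.2% at the same CpG. In K119-K4 replicate 2 they were at 18.5% and 19.8%, against 18.6% and 25.04%. K4-K119 replicate 1 differed, with 78.2% and 76.6% against 55.6% and 74.8%. So in 3 of 4 libraries a gene's side of a pair was marked about as often as a no-partner promoter, and less often than one in a region of the same CpG decile. Positions are counted from the midpoint, which lies upstream of both starts of a pair.

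At most pairs the peaks did not form 1 block over both genes. Of the pairs with a peak of at least 10 reads, 1 peak reached over both starts in 392 of 832 (47.1%) in K4-K119 replicate 1, in 77 of 331 (23.3%) in K4-K119 replicate 2, in 139 of 443 (31.4%) in K119-K4 replicate 1 and in 56 of 308 (18.2%) in K119-K4 replicate 2. Separate peaks on both sides were found in 33.4%, 11.8%, 11.7% and 7.47%. The remaining pairs were marked on 1 side only. The minus-strand side alone was marked in 10.1%, 34.1%, 30.2% and 35.4%, and the plus-strand side alone in 9.38%, 30.8%, 26.6% and 39.0%, the minus-strand side being the more frequent in 3 libraries and the plus-strand side in 1. K4-K119 replicate 1, with the most reads in kept peaks (1976566), also had the most pairs marked on both sides (80.5%, against 25.6% to 43.1%), and the part of depth in this was not tested. Of no-partner promoters with such a peak, 78.2%, 61.4%, 66.1% and 51.6% were marked on both flanks of their 1 start in the same order of libraries, against 80.5%, 35.0%, 43.1% and 25.6% of pairs. Outside K4-K119 replicate 1 the pairs were thus lower, with the stretch between the starts counted to neither flank of a pair.

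Among the reciprocal regions, 1 block was the most frequent form. Of the 230 pairs, 120 (52.2%) had 1 reciprocal region over both starts, which is 13.5% of all pairs (95% exact binomial interval 11.3% to 16.0%). Separate reciprocal regions lay on both sides in 12. The minus-strand gene alone was covered in 51 and the plus-strand gene alone in 47, and none lay between the starts only.

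The marked side tended to be the CpG-rich one. Among the 98 pairs with a reciprocal region on 1 side, that side had more CpG in its 1500 bp than the other in 79, and fewer in 18. The medians were 81 CpG on the marked side and 54 on the other. In single libraries, the marked side was the CpG-richer in 75.8% to 83.3% of one-sided pairs, from 163 of 215 in K4-K119 replicate 2 to 210 of 252 in K119-K4 replicate 1. Among the 219 pairs with peaks of at least 10 reads in all 4 libraries, 18 were marked on the same side alone in every library, 7 on the minus-strand side and 11 on the plus-strand side, and in 17 of these 18 that side had more CpG (median 83 against 41.5). A single peak over both starts in every library was found at 24. Opposite sides in 2 libraries were seen at 9. The starts of the 18 one-sided pairs lay a median of 207.5 bp apart, and those of the 24 pairs under 1 peak a median of 86 bp.

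The 5 pairs whose reciprocal region was most lopsided show this at single loci. They were picked among pairs that reached farther past the same start in all 4 reChIP libraries. That held for 184 of the 227 pairs with a reciprocal region and a peak in all 4. The shared direction is therefore set by this choice. MPG, a DNA glycosylase of base excision repair, and RHBDF1, a rhomboid family protein, start 652 bp apart on chromosome 16. The RHBDF1/MPG peaks all lay on the MPG side, with read counts of 168 and 76 for K4-K119 and of 165 and 70 for K119-K4. The reciprocal region began 94 bp inside MPG (77101 to 79600, with the MPG start at 77007) and left the RHBDF1 start 746 bp outside. MPG's 1500 bp held 124 CpG and those of RHBDF1 24. TBC1D10B, a Rab GTPase-activating protein, was marked and MYL11, a fast muscle myosin light chain, was not: the TBC1D10B/MYL11 peaks held 351, 199, 396 and 182 reads, all on the TBC1D10B side, where 129 CpG stood against 30.

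FKBP14 and PLEKHA8, on chromosome 7 and 702 bp apart, had a reciprocal region of 1200 bp inside PLEKHA8, a lipid transfer protein gene (103 CpG against 23). Read counts at FKBP14/PLEKHA8 were 125 and 50 for K4-K119, 93 and 28 for K119-K4. At GUCD1/ENSG00000286070 the region reached 2434 bp into GUCD1 and ended 807 bp short of the partner's start, with 94, 54, 84 and 48 reads. IFT140, an intraflagellar transport gene, and CRAMP1 were the exception in CpG content, with 130 on the unmarked IFT140 side and 123 on the CRAMP1 side. There the region reached 3563 bp past the CRAMP1 start, and the largest peaks held 507, 246, 642 and 207 reads. In K4-K119 replicate 1 and K119-K4 replicate 1 IFT140 had a separate peak of at least 10 reads. K4-K119 replicate 1 also had such a peak on the FKBP14 side, and one at GUCD1 that reached over both starts, so of the 5 pairs RHBDF1/MPG and TBC1D10B/MYL11 were one-sided in all 4 libraries.

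Reads and widths were lower at pairs than at no-partner promoters once peaks of at least 10 reads were compared. The median reads in the largest peak were 71.5 at pairs and 83 at no-partner promoters in K4-K119 replicate 1, 54 and 68 in replicate 2, 82 and 111 in K119-K4 replicate 1, and 46.5 and 58 in replicate 2. The median widths were 1500 and 1600 bp, 1200 and 1500 bp, 1100 and 1400 bp, and 1000 and 1200 bp. Within the 25 combinations of library and CpG decile that held at least 20 pairs, the median reads were lower at pairs in 23, and the median width was lower in 20, equal in 3 and higher in 2. With all kept peaks, of any read count, the ratio of medians of pairs over no-partner promoters averaged 1.30 over the libraries, which turned on K119-K4 replicate 2 (21 against 9 reads). Without that library it was 0.951.

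The distance between the starts went along with the share of marked pairs. A reciprocal region was found at 27 of 146 pairs up to 50 bp apart (18.5%, 12.6% to 25.8%), at 64 of 253 pairs 101 to 200 bp apart (25.3%, 20.1% to 31.1%) and at 28 of 76 pairs 501 to 1000 bp apart (36.8%, 26.1% to 48.7%). CpG content rose in step, from a median of 113.5 through 131 to 152.5, and no-partner promoters at the same CpG deciles reached 17.5%, 23.6% and 30.3%. One reciprocal region over both starts was found at 18 of the 27 closest marked pairs and at 7 of the 28 most distant. Just inside the limit of distance, 10 of 30 pairs 801 to 1000 bp apart had a reciprocal region, and just outside it 5 of 14 gene pairs 1001 to 1200 bp apart.

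The pairs with the highest reads in all 4 libraries joined a regulator or tissue gene to a gene of general use in several cases. SBF2/ADM holds ADM, which encodes the peptide hormone adrenomedullin; its largest peaks had 545, 373, 555 and 283 reads, K4-K119 replicates first, under a reciprocal region of 6000 bp. OSTM1/NR2E1 holds NR2E1, an orphan nuclear receptor of neural stem cells, with 640, 397, 480 and 261 reads over 6100 bp. SOX18/TCEA2, with the endothelial factor SOX18, had 664, 351, 623 and 257 reads and 1 peak over both starts in every library. The pairs were picked as those whose lowest read count over the 4 reChIP libraries was highest. Only pairs with a reciprocal region and no IgG-IgG peak were eligible. Their high reads and lack of IgG-IgG peaks are therefore set by this choice.

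Others of the 10 encode proteins that most cells use. NOA1/POLR2B, with a subunit of RNA polymerase II, had 458, 331, 596 and 265 reads. POLE/PXMP2, with the catalytic subunit of DNA polymerase epsilon, had 314, 185, 602 and 205. GATM/SPATA5L1, whose starts are 9 bp apart and of which GATM makes a creatine precursor, had 371, 220, 520 and 227 and 1 peak over both starts in every library. In the K119-K4 libraries that peak reached only 26 bp past the GATM start, less than a peak-calling bin of 100 bp. It reached 1964 and 1464 bp past the SPATA5L1 start. The remaining pairs were ARFRP1/ENSG00000273154 (293 to 567 reads), GMFG/SAMD4B (246 to 866), NEMP1/NAB2 (197 to 546) and IFT140/CRAMP1. In all 10 pairs, replicate 1 of an order held more reads than replicate 2.

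Of 8 well-known bidirectional pairs, 1 had a reciprocal region. SIRT3, a mitochondrial deacetylase, and PSMD13, a subunit of the proteasome lid, start 35 bp apart on chromosome 11. The SIRT3/PSMD13 peaks were small, with 44, 21, 19 and 10 reads. That of K4-K119 replicate 1 reached over both starts and 834 bp past that of PSMD13, and the others lay on the SIRT3 side. The reciprocal region of 1100 bp lay inside SIRT3, which had 105 CpG in its 1500 bp against 40 in PSMD13. COL4A4/COL4A3, genes of basement membrane collagen, had more reads (216, 115, 89 and 10) but no reciprocal region, since the peak of K119-K4 replicate 2 was only 300 bp wide against 1700 bp in replicate 1.

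Peaks in K4-K119 replicate 1 alone were found at PPAT/PAICS, both purine synthesis enzymes (116 reads), at NPAT/ATM, a histone gene activator and the DNA damage kinase (51 reads), at SARS2/MRPS12 (147 reads) and at PREPL/CAMKMT (57 reads). TOP3A/SMCR8 had 65 and 19 reads in K4-K119 replicate 1 and K119-K4 replicate 2 and 2 reads in K119-K4 replicate 1. PSMB1/TBP had 26 reads in K4-K119 replicate 1 and 2 in each K119-K4 library, which is the count of the background peaks. Neither had a kept peak in K4-K119 replicate 2.

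By function, the share of pairs with a reciprocal region varied between lists of few pairs, against 25.9% of all pairs. It was 10 of 45 (22.2%) for DNA repair and replication. A mitochondrial list, named for the ribosome and respiratory chain but also holding TIMM29, had 10 of 48 (20.8%). RNA splicing and processing had 8 of 30 (26.7%) and the cell cycle 3 of 13 (23.1%). No-partner promoters at the same CpG deciles had one in 22.6%, 19.6%, 24.6% and 22.6%, in this order. Among DNA repair genes the highest reads were at POLE/PXMP2, at XRCC3/ZFYVE21, which holds the recombination gene XRCC3 (351, 132, 460 and 190 reads), and at ABHD12/GINS1, with a subunit of the replicative helicase (169, 122, 321 and 145). Among mitochondrial genes they were at CCDC127/SDHA, with a subunit of succinate dehydrogenase (344, 180, 489 and 212), at LRRC41/UQCRH and at YIPF2/TIMM29.

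Zinc finger genes had a reciprocal region at 9 of 31 pairs (29.0%), near the 25.9% of all pairs. No-partner promoters of the same CpG deciles had one in 19.0%. The highest were ZNF598/NPW (160, 115, 171 and 103 reads), UIMC1/ZNF346 and SATL1/ZNF711. Cytoplasmic ribosomal proteins had one at 4 of 11 pairs, against 21.8% of no-partner promoters at the same CpG deciles. Among them were RPL12/LRSAM1 (68, 90, 85 and 73 reads), TRIM66/RPL27A and RPL35/ARPC5L. The proteasome had one at 2 of 6 pairs, against 25.9% of no-partner promoters at the same CpG deciles. PSMA7/SS18L1 was the stronger of these, with 612, 171, 974 and 457 reads, 974 being the highest count of any pair in K119-K4 replicate 1. RNA processing pairs with the highest reads were HNRNPUL2/TTC9C, INTS11/CPTP (237, 144, 224 and 89) and DDX51/NOC4L. Those of the cell cycle were IDE/KIF11 (158, 110, 144 and 59), ANAPC5/RNF34 and CENPB/CDC25B.

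A list of developmental transcription factors held few pairs, and 3 of 6 had a reciprocal region, each with 1 peak over both starts in all 4 libraries. They were SOX18/TCEA2, LMF1/SOX8 (443, 159, 304 and 64 reads) and FOXL2/FOXL2NB (242, 78, 170 and 26). The pairs of this list held a median of 203.5 CpG, and no-partner promoters at the same CpG deciles reached 40.9%. Among the 208 no-partner promoters of the list itself, 38 had one (18.3%). The list was not complete: OSTM1/NR2E1 and HESX1/APPL1, with the homeobox gene HESX1, lay outside it and had a reciprocal region. At OSTM1/NR2E1 the peak of K119-K4 replicate 2 lay on the plus-strand side only.

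Several lists had no reciprocal region at all. Of 15 histone pairs, which join H2A and H2B genes in most cases, none had one. They held a median of 126 CpG, a level at which no-partner promoters of any function reached 19.8%. Among the 37 no-partner promoters of the histone list, 2 had one (5.41%), so a low share was not particular to the pairs. Some of the 15 share a gene, as H3C12/H2BC17 and H2AC17/H2BC17 do. The median reads of the pairs were 28, 0, 19 and 0 in the order of libraries above. H2AC25/H2BC26 had 80 reads in K4-K119 replicate 1 and 68 and 35 in K119-K4, but no kept peak in K4-K119 replicate 2. H2AC15/H2BC15 had 40, 3, 42 and 0. H2AC1/H2BC1, a pair of testis histone genes, had no peak above 2 reads. Histone genes have near-identical copies, and the authors' handling of reads that match several copies can change these counts.

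Of 5 pairs in a list of Polycomb, H3K4 and H2A ubiquitin enzymes, none had a reciprocal region. Their median was 197 CpG, where no-partner promoters reached 47.6%. The list was not complete: TEX46/KDM1A, with an H3K4 demethylase, lay outside it and had a reciprocal region (98, 62, 146 and 79 reads). BAP1/PHF7, with the H2AK119ub deubiquitinase BAP1, had 82, 2, 30 and 3 reads. RHOF/SETD1B, with an H3K4 methyltransferase, had 419, 539 and 178 reads and YAF2/PPHLN1, with a PRC1 subunit, 163, 132 and 56, in K4-K119 replicate 1 and the K119-K4 replicates, but neither had a kept peak in K4-K119 replicate 2. In that library 138 pairs had a deposited peak of at least 10 reads but no kept one of that size. A missing kept peak there is therefore not absence of the marks. Of 3 tRNA synthetase pairs (LYRM4/FARS2, RARS2/ORC3 and SARS2/MRPS12) none had a reciprocal region, where no-partner promoters at the same CpG deciles reached 16.2%. The largest of their peaks held 32, 39 and 147 reads, all in K4-K119 replicate 1. With 3 to 15 pairs a list, these counts are descriptions.

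At 14 pairs no reChIP library had a kept peak. The CpG-richest was BOLA2/SLX1B on chromosome 16, with 192 CpG, whose central 300 bp occur in 2 exact copies in hg38. No peak of any size was listed there, and the part that the copy plays in the mapping of reads was not tested. The next were PRDX2/THSD8, with the peroxidase gene PRDX2 (146 CpG), ZNF597/NAA60, which includes an imprinted gene (106 CpG), and BTBD18/CTNND1 (104 CpG), each with 1 copy. In all, 3 of the 14 had more than 1 copy, and the other two were pairs of MAGEA2 and CSAG genes on the X chromosome.

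IgG-IgG peaks were found at 53 pairs. Their reads summed to 4 at RPL36AL/MGAT2 and RRP8/ILK, in peaks of 2 reads in replicate 1, and to 2 at ABHD12/GINS1, ACTR1B/C2orf92 and APBA3/MRPL54, the next in order of reads and name. Of these 5 pairs, ABHD12/GINS1 had a reciprocal region.

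Last, the order of the antibodies was compared at the 286 pairs and 3936 no-partner promoters with a kept peak in all 4 reChIP libraries. By edgeR's quasi-likelihood test with Benjamini-Hochberg adjustment over all 4222 regions, none differed at an adjusted p of 0.05 (0% of regions were called in either direction), and 31 pairs and 559 regions in all had an unadjusted p below 0.05. DESeq2 called 238 regions, 4 pairs higher in K4-K119 and 10 higher in K119-K4 among them. The median log2 fold change of K4-K119 over K119-K4 was 0.24 at pairs (quartiles -0.13 and 0.71), against 0.04 (-0.34 and 0.54) at no-partner promoters. The log2 fold change was above 0 at 186 of the 286 pairs. Pairs are not replicates of an order, no such count was made for no-partner promoters, and this shift was not tested.

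The smallest p belonged to ANKRD34A/POLR3GL, where K4-K119 gave 271 and 134 reads and each K119-K4 replicate 2 (log2 fold change 5.89, edgeR adjusted p = 0.0695). The large peaks there ended at 145963300, 1275 bp inside ANKRD34A. C1orf109/CDCA8 had 177 and 73 reads against 42 and 23 (1.94), and RPP25/SCAMP5 229 and 82 against 97 and 22 (1.09). Reads in this paragraph are those of the largest kept peak, whereas the fold changes were fitted on reads in all kept peaks of a region. In the other direction stood ANKRD11/SPG7, with a chromatin regulator, at 199 and 98 against 524 and 293 reads (-1.48), CCDC92/RFLNA at 190 and 88 against 352 and 141 (-0.96) and POLE/PXMP2 (-0.98). The edgeR adjusted p of these 5 pairs was 0.255, and their unadjusted p lay between 0.000702 and 0.00493, so they did not pass the test once adjusted over all regions.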

How the data were processed

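The data are EPIC2 peak lists of 6 reChIP-seq libraries. The submitters' processing notes name Trim Galore 0.6.6, BWA 0.7.13 and the build hg38. The authors called peaks in each replicate against input, in bins of 100 bp. The deposited counts of ChIP and input reads per peak are unscaled, and the deposited log2 fold and FDR (an adjusted p-value) are the authors' own. Lists hold no reads outside peaks, so sequencing depth is unknown; reads in kept peaks summed to 746906 to 1976566 per reChIP library and to 58884 and 65288 in IgG-IgG.

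Kept peaks, the merging of replicates and the reciprocal regions follow the report's definitions, after the study's methods; its blacklist was not used here. Every listed peak ended within the hg38 chromosome it was placed on. The value of a region was its largest kept peak. No-partner promoters were weighted to the pairs' 10 deciles of CpG count in 3000 bp. For the order of antibodies, reads in all kept peaks of a region were fitted with edgeR (TMM), with DESeq2 as an alternative. The labels do not say whether replicates of the same number share a chromatin preparation, and a replicate block was an alternative. Pairs were named as well-known, by highest reads, by absent peaks, by lopsidedness, by the smallest p of the order, by list (up to 3 each) and by IgG-IgG reads. Members and lists were chosen with earlier results of these data known. Alternatives were filters, overlaps, region definitions and left-out libraries. The code was tested on simulated data first. Tools were edgeR 4.0.16 and DESeq2 1.42.0 in R 4.3.3, and pandas 2.3.3, scipy 1.17.1, numpy 2.4.6 and matplotlib 3.10.9 in Python 3.11.15.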

Additional observations from a re-analysis of the deposited data

Results flagged for a closer look

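Pairs exceeded no-partner promoters with the antibodies and not with the control. For any kept peak, the excess was 9.71 to 27.1 percentage points in the 4 reChIP libraries. In K4-K119 replicates 1 and 2 and K119-K4 replicates 1 and 2, in this order, 96.6%, 51.0%, 63.8% and 54.3% of pairs had one. The shares of no-partner promoters were 69.5%, 38.4%, 50.0% and 44.6%. Weighted to the pairs' CpG deciles these became 88.0%, 46.9%, 60.4% and 51.8%, so the excess was smaller at the same CpG content. In the 2 IgG-IgG libraries pairs lay 0.793 and 1.10 points below no-partner promoters. These IgG-IgG values rest on 26 and 27 pairs (2.93% and 3.04%, against 3.72% and 4.15% of no-partner promoters), and their sign was not tested. The difference of the means was 16.7 points (exact permutation p = 0.0667).

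The deposited lists also held peaks of at least 10 reads that the filter on the fold removed, and they are used in no comparison above. Pairs that had such a peak but no kept one of that size numbered 138 in K4-K119 replicate 2, 93 in K119-K4 replicate 1 and 68 in K119-K4 replicate 2, which is 15.6%, 10.5% and 7.67% of all pairs. The shares of no-partner promoters were 10.6%, 6.69% and 5.51%. K4-K119 replicate 1 and both IgG-IgG libraries had 0.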

How the results depend on the processing

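The share of pairs with a reciprocal region was 6.20% with a log2 fold above 2, 37.7% with no filter on the fold and 17.8% when peaks had to overlap by more than 50% of both. In the same order, its difference from no-partner promoters was 0.850, 11.9 and 4.24 percentage points, and the share of pairs with both starts in 1 reciprocal region was 2.59%, 21.6% and 7.55%. The difference at the pairs' CpG deciles turned to -0.752 points with a log2 fold above 2 and to -0.207 points at an overlap above 50%, so its sign depends on the filter. Leaving out each reChIP library in turn gave shares of 25.6% to 34.8%, differences of 7.80 to 11.8 points, differences at the same CpG of 1.14 to 4.04 points, and both starts in 1 region at 9.81% to 18.8%. The ratio of median reads turned to 0.799 with peaks of at least 10 reads and to 0.825 with peaks of at least 1 input read, and lay between 0.951 and 1.43 with a library left out. The causes were not tested. The other alternatives run left these values on their side: an FDR below 0.01, any overlap, removal of peaks at IgG-IgG peaks, a centered region, a limit of 500 bp, and no-partner promoters without near starts or lncRNA. The gap of 18.1 points for peaks of at least 10 reads was 11.9 to 20.8 points over the alternatives. No pair had such a peak in IgG-IgG, so this bears on the reChIP libraries alone. For any kept peak, exchanging IgG only within replicate numbers (replicate block) gave an exact permutation p of 0.111, the smallest that 9 assignments allow.

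For the order of antibodies, DESeq2 called 238 regions against 0, the fit with absent peaks as 0 called 1, and leaving out 1 library gave 0 to 47 (24 without K4-K119 replicate 1, 47 without K119-K4 replicate 1). RLE size factors, at least 10 reads in each library and the replicate block called 0. Deviations of same-numbered replicates correlated at 0.0923. With a lone library in an arm, it is assumed to vary like the others. Of 64 named pairs, the number of reChIP libraries with a kept peak was the same at 31 with a log2 fold above 2 and at 54 or more in the 7 other alternatives. With 2 replicates per order and no reads outside peaks, an absent peak cannot be read as absence of the marks.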
